A study of Homo sapiens with 14 samples.

Results

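Transcriptomes of K562 cells that carried the sgHS1-5 guide RNAs were set against those of K562 cells that carried the sgHBG guide RNAs, which made up 6 of the 14 RNA-seq libraries of the series. The labels give 3 libraries for each group. K562 is a human chronic myeloid leukaemia line with erythroid and megakaryocytic features that expresses embryonic and fetal globin. In both groups the cells stably expressed dCas9 (a Cas9 that binds DNA without cutting it) with a Flag tag and a biotin-acceptor tag, together with the biotin ligase BirA and the guide RNAs. By their names, the sgHS1-5 guides were directed to hypersensitive sites of the β-globin locus control region and the sgHBG guides to the fetal globin genes. The other libraries were 3 with the HS2 guide (sgHS2), 3 with a non-targeting guide (sgGal4) and 2 of unmodified cells (WT), and they entered the fit and serve below to place a level. The comparison asks which transcripts differ between cells with the locus control region targeted and cells with the fetal genes targeted. All cells were grown in IMDM with fetal bovine serum.

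The β-globin locus control region is a stretch of enhancers upstream of the cluster that drives the globin genes in turn during development, from the embryonic gene HBE1 through the fetal genes HBG2 and HBG1 to the adult genes HBD and HBB. A tagged dCas9 can be pulled down with biotin to capture the chromatin at its target, and bound dCas9 can also hinder transcription on its own. Each guide group is a separate cell population, so what the guides do and what else sets the populations apart cannot be told apart. No label states that the replicates come from different cultures. The p-values therefore reflect the scatter among the libraries at hand, which can be purely technical.

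The sgHS1-5 libraries held 5694448, 6773888 and 6722849 counted reads and the sgHBG libraries 9781552, 10870414 and 11116665 reads. Levels are given in CPM, reads scaled to library size with TMM factors. For a gene without reads, counting error alone leaves room for 0.405 to 0.486 CPM in sgHS1-5 and for 0.261 to 0.3 CPM in sgHBG. A χ² test on the counts of replicate pairs, whose statistic per degree of freedom is near 1 where counting error alone separates them, was 17.1 between sgHS1-5 1 and 2, 3.01 between 1 and 3 and 11.2 between 2 and 3, against 1.24 to 1.42 within sgHBG. The 12 markers of K562 summed to 2890, 2240 and 2720 CPM in sgHS1-5 and to 2400, 2410 and 2380 CPM in sgHBG, and none of them was at 0 in either group.

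Libraries sgHS1-5 2 and 3 held more transcripts of other blood cells than sgHS1-5 1. The main counts, most lists and many genes are therefore also given for sgHS1-5 replicate 1 alone against the 3 sgHBG libraries. Members of a list called in replicate 1 alone need not be the members called with all libraries. The 22 neutrophil markers summed to 49.5, 1730 and 345 CPM in sgHS1-5 libraries 1 to 3, against 27.6, 29.9 and 28.3 CPM in sgHBG. The 13 B cell markers of the table summed to 26.7, 202 and 64.3 CPM in sgHS1-5 and to 19.9, 16.8 and 18.7 CPM in sgHBG. The monocyte markers reached 133, 760 and 250 CPM in sgHS1-5, against 152, 139 and 142 CPM in sgHBG, so that replicate 1 alone lay below every sgHBG library for this list. For T and NK cell markers the sums were 50.7, 75.3 and 57.4 CPM in sgHS1-5 and 28.6, 34.4 and 28.2 CPM in sgHBG. Replicate 2 was highest of the sgHS1-5 libraries in all 4 lists and replicate 1 lowest. Replicate 1 still lay above every sgHBG library for neutrophil, B cell and T and NK cell markers. Of its neutrophil sum of 49.5 CPM, MPO gave 19.4 CPM and ELANE 2.1 CPM. The excess over sgHBG in this list thus came mostly from these genes and not from the list as a whole. A call that replicate 1 shared can therefore still involve such transcripts, which was not tested. The neutrophil markers S100A12, CXCR1 and DEFA3 were at 0 in all sgHS1-5 libraries, as was the NK cell marker GNLY, whereas every monocyte marker and every B cell marker in the table had counts in at least 1 sgHS1-5 library. In bulk RNA, fewer cells of a type and less RNA per cell cannot be told apart.

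**Figure D1:**
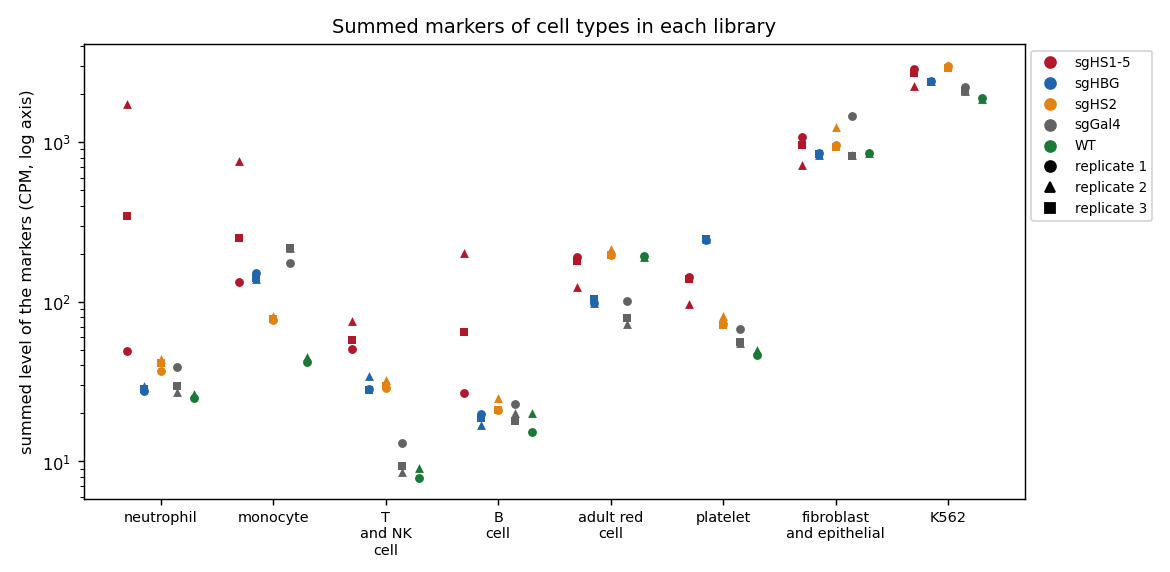
Summed level of the markers of each cell type in every library (CPM, log axis), by group from sgHS1-5 on the left to WT on the right, with symbols for the replicate number. sgHS1-5 2 stands highest for neutrophil (1730 CPM), monocyte (760 CPM), T and NK cell (75.3 CPM) and B cell markers (202 CPM), while K562 markers lie at 2240 to 2890 CPM in sgHS1-5 and 2380 to 2410 CPM in sgHBG.

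Of 14406 genes tested, 3628 (25.2%) differed between sgHS1-5 and sgHBG at an adjusted p under 0.05 (edgeR quasi-likelihood test, Benjamini-Hochberg adjustment over all genes tested). Of these, 1790 (12.4%) were higher and 1838 (12.8%) were lower in sgHS1-5. With replicate 1 alone, 528 genes (3.67%) were higher and 855 (5.94%) lower, the single library being assumed to vary like the other groups. In total that was 1383 genes (9.60%). Calls shared by both fits with the same sign numbered 1213 (8.42%), of which 486 were higher (3.37%) and 727 lower (5.05%), that is 27.2% of the higher calls and 39.6% of the lower calls. The sign in replicate 1 alone matched the call for 1663 of the 1790 higher genes and for 1838 of the 1838 lower genes. Replicate 2 was the highest of the 3 sgHS1-5 libraries in 930 of the 1304 higher calls that replicate 1 did not share (71.3%), against 39.1% of all genes tested. That set leaves out the genes called from replicate 1, so its share partly follows from how it was chosen. Replicate 2 was highest in 24.7% of the higher calls that replicate 1 shared. Among lower calls it was highest in 43.6% of those shared and 21.8% of those not shared. A call with a difference of at least 2-fold was made for 1469 genes (10.2%), 908 higher (6.30%) and 561 lower (3.89%).

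The count of calls depended on the libraries that share the estimate of spread. It was 6899 when sgGal4 1 and sgHS2 2, which stand apart from their groups, were left out of the fit, and 5505 with the 6 libraries of the comparison only. The median log2 difference over all genes was 0.03. The sgHS1-5 and sgHBG libraries did not overlap in 7582 genes (52.6%), of which 3416 were called (23.7% of all genes). All 3 sgHS1-5 libraries lay outside the range of the 11 other libraries in 2307 genes (16.0%), and 1515 of these were called (10.5%), 735 above (5.10%) and 780 below (5.41%). All 3 sgHBG libraries lay outside the range of their 11 others in 477 genes (3.31%), and 288 of these were called (2.00%). In 67 of those calls sgHBG was the lowest group (0.465%) and in 221 the highest (1.53%).

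**Figure D2:**
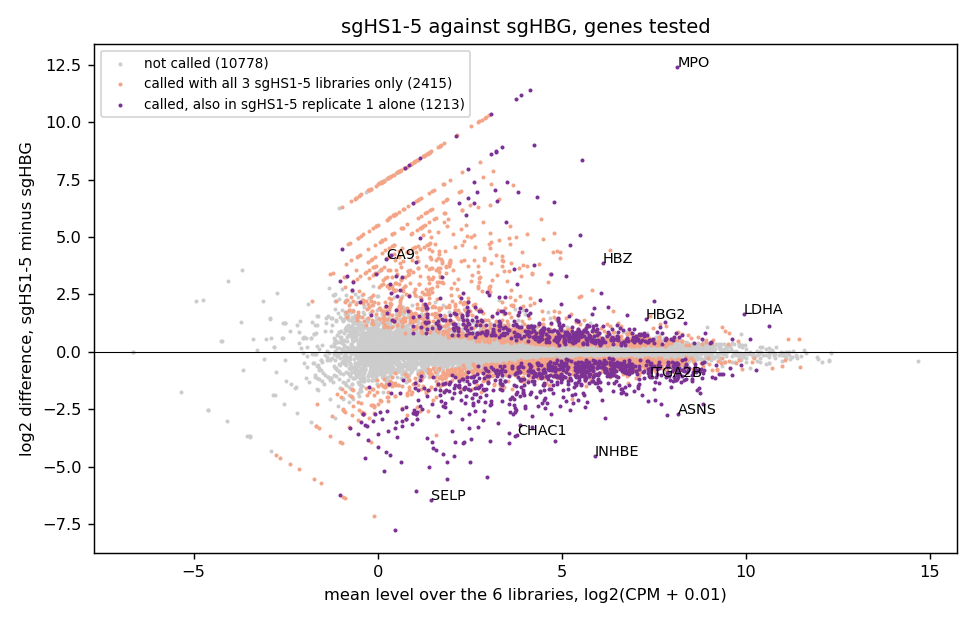
Log2 difference, sgHS1-5 minus sgHBG, against the mean level over the 6 libraries (log2 of CPM + 0.01) for the 14406 genes tested, coloured by whether a gene was called and whether sgHS1-5 replicate 1 alone also called it (1213 genes). MPO lies highest among the shared calls, and INHBE, ASNS, LDHA and HBZ are shared calls too.

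The 12 genes with the highest log2 difference among calls that replicate 1 shared were MPO, CXCR4, ELANE, IRF8, MS4A1, TNFAIP8L3, EMP1, FAM20C, CTSG, BASP1, IRF4 and P4HTM. MPO encodes myeloperoxidase, ELANE and CTSG encode proteases of neutrophil granules, IRF8 and IRF4 are transcription factors of myeloid and lymphoid cells, and MS4A1 is the B cell antigen CD20. MPO stood at 19.4, 1410 and 264 CPM in sgHS1-5, against 0.1, 0.178 and 0 CPM in sgHBG, a ratio of counts of 6482 (exact binomial 95% interval 2218 to 31440, counting error only). ELANE had 2.1, 73.6 and 13.5 CPM in sgHS1-5 and no count in sgHBG, at least 340-fold higher with the floor of 3 counts over the sgHBG group. In all 12 genes the level in sgHS1-5 2 was 10.4 to 72.8 times that in sgHS1-5 1 and the level in sgHS1-5 3 was 3.62 to 26.9 times it. These genes moved with the neutrophil and B cell marker sums given above. MPO and ELANE are themselves neutrophil markers of those sums and MS4A1 a B cell marker, so for them this follows in part from the lists. In sgHS1-5 2, MPO alone gave 1410 of the 1730 CPM of the neutrophil sum. The part of other cells in these genes was not tested. SERPINB2, CYP1B1, CLEC5A, MMP7, EPB41L3 and MPEG1 had the highest differences among calls that replicate 1 alone did not share, with 29.7 to 40.9 CPM in sgHS1-5 2, 0.324 to 1.29 CPM in sgHS1-5 1 and 0 in sgHBG.

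Calls in which the 3 sgHS1-5 libraries lay within 2-fold of each other and which replicate 1 shared numbered 420 higher (2.92%) and 604 lower (4.19%), a selection made after the values were seen. FAM178B had 126, 85.7 and 129 CPM in sgHS1-5 and 18.9, 19.8 and 19.4 CPM in sgHBG (log2 difference 2.55 ± 0.19, SE, adjusted p = 1.76e-06 by edgeR). MUC19, a gel-forming mucin gene, had 79.5, 45.6 and 64.6 CPM in sgHS1-5, against 4.9, 6.33 and 8.02 CPM in sgHBG (3.29 ± 0.31, edgeR adjusted p = 1.65e-05). FAM178B and MUC19 stood above sgHBG in every sgHS1-5 library, as the naming rule required, and FAM178B reached a mean of 161 CPM in WT. MIR210HG, the host transcript of the hypoxia-induced microRNA miR-210, had 16.8, 11.1 and 12.7 CPM in sgHS1-5 and 2.3, 2.05 and 2.18 CPM in sgHBG. The rest of the 12 highest, namely HBZ (described below with the α-globin genes), HTRA3, RPA4, UGT2B28, SPDYE6, CAPN5, UGT2B11, OTOF and PNCK, lay at 1.78 to 147 CPM in sgHS1-5 1. Reads of UGT2B28 and UGT2B11, which are near-identical, could be split by the counting, so their assignment is uncertain.

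The lowest genes shared with replicate 1 included several at or near 0 in sgHS1-5. KRT86, a hair keratin, had no count in any sgHS1-5 library and 2.4, 2.32 and 3.57 CPM in sgHBG, at least 19.4-fold lower. SELP, which encodes P-selectin of platelets and endothelium, had 0, 0 and 0.135 CPM in sgHS1-5 and 5, 5.26 and 5.84 CPM in sgHBG. FRG2 had 0.324, 0.136 and 0.54 CPM in sgHS1-5, against 15.2, 14.4 and 15.9 CPM in sgHBG (log2 difference −5.45 ± 0.42, edgeR adjusted p = 3.1e-06). In these genes no sgHS1-5 library reached the lowest sgHBG library, which the naming rule required. SLIT3, KRT81, MT1H, MT1G, CHRM3-AS2, LY86-AS1, THSD4 and LIMCH1 completed the list with INHBE. The partners KRT81 and KRT86, and MT1G and MT1H, are near-identical, and CHRM3-AS2 and LY86-AS1 lie antisense to other genes in libraries made with a kit that does not mark strand, so the source of these reads is uncertain.

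INHBE, which encodes the inhibin βE subunit of activin E, had 5.83, 3.82 and 5.13 CPM in sgHS1-5 and 117, 112 and 114 CPM in sgHBG (log2 difference −4.54 ± 0.14, edgeR adjusted p = 2.04e-09, and −4.29 in replicate 1 alone). The groups did not overlap, which the naming rule required. The mean was 120 CPM in sgHS2, 140 CPM in sgGal4 and 153 CPM in WT, so it was sgHS1-5 that stood apart. CEACAM1, an adhesion receptor, had 0.971, 1.23 and 1.89 CPM in sgHS1-5 and 22.2, 20.5 and 23.7 CPM in sgHBG. The mean of CEACAM1 was 8.51 CPM in sgHS2 and 0.624 CPM in sgGal4 and 0.888 CPM in WT, so here sgHBG stood apart. IL20RB, a subunit of receptors for cytokines of the IL-20 family, had 3.72, 2.73 and 4.19 CPM in sgHS1-5 and 53.6, 50.6 and 52.7 CPM in sgHBG (−3.88 ± 0.18, edgeR adjusted p = 1.83e-07). FERMT2, an integrin activator, had 1.94, 1.5 and 2.3 CPM in sgHS1-5 and 23.8, 25 and 25.1 CPM in sgHBG, with sgHS1-5 the lowest and sgHBG the highest of all groups.

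In the β-globin cluster the fetal genes were higher in sgHS1-5 than in sgHBG, and the adult gene HBD and the pseudogene HBBP1 were lower. HBG2 had 279, 174 and 230 CPM in sgHS1-5, against 90.2, 82.1 and 80.5 CPM in sgHBG, a log2 difference of 1.43 ± 0.33 (edgeR adjusted p = 0.00771). All sgHS1-5 libraries lay above all sgHBG libraries, and replicate 1 alone gave 1.73 (edgeR adjusted p = 0.0348). HBG1 had 154, 102 and 146 CPM in sgHS1-5 and 59.8, 63.3 and 60.3 CPM in sgHBG, a difference of 1.13 ± 0.33 (edgeR adjusted p = 0.0247). The HBG1 call was lost with replicate 1 alone (log2 difference 1.33). Among the sgHS1-5 and sgHBG libraries, leaving out any other than sgHS1-5 2 also ended it, with edgeR adjusted p between 0.0659 and 0.0774. The direction stayed the same. Without sgGal4 1 and sgHS2 2 the HBG1 call was kept (1.11, edgeR adjusted p = 1.88e-05), so it depended on the libraries that share the estimate of spread. HBG1 and HBG2 are near-identical, so the share of reads given to each is uncertain.

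HBE1, the embryonic gene, did not differ beyond the spread, at 289, 187 and 277 CPM in sgHS1-5 and 289, 266 and 265 CPM in sgHBG (log2 difference −0.12 ± 0.28, edgeR adjusted p = 0.795), and its libraries overlapped. HBD, the minor adult gene, had 3.56, 2.59 and 2.84 CPM in sgHS1-5 and 6.7, 5.71 and 7.06 CPM in sgHBG (−1.12 ± 0.23, edgeR adjusted p = 0.00398). HBBP1 had 3.4, 2.87 and 4.32 CPM in sgHS1-5 and 6.5, 8.02 and 6.19 CPM in sgHBG (−0.96 ± 0.25, edgeR adjusted p = 0.0127). Neither HBD nor HBBP1 overlapped between the groups, yet neither was called in replicate 1 alone (adjusted p = 0.138 and 0.0986). Leaving out sgHBG 2 also ended the HBBP1 call (edgeR adjusted p = 0.0619), as did RPKM (limma adjusted p from 0.0577 to 0.084 over 3 settings). For HBD the RPKM settings gave limma adjusted p of 0.048, 0.0572 and 0.0687, with log2 differences of −0.77 to −0.68. For HBB, which encodes adult β-globin, the count table held 0 reads in all 6 libraries. Of the 6 genes, 5 were tested, 2 were called higher and 2 lower, beside 12.4% and 12.8% of all genes.

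Scaled to transcript length and library size, as deposited RPKM, HBG2 was the highest gene of the cluster in sgHS1-5 with 673, 416 and 582, against 216, 190 and 193 RPKM in sgHBG, whereas HBE1 was the highest in sgHBG with 371, 351 and 344 RPKM, and 394, 259 and 365 RPKM in sgHS1-5. Among the groups outside the comparison, HBG2 had 246, 324 and 243 CPM in sgHS2, 166, 58 and 60.4 CPM in sgGal4, and 122 and 129 CPM in WT. The 3 sgHBG libraries thus lay above sgGal4 2 and 3 and below sgGal4 1, WT and sgHS2. HBE1 had 634, 825 and 618 CPM in sgHS2, 544, 240 and 239 CPM in sgGal4, and 342 and 346 CPM in WT. Its sgHBG libraries likewise lay above sgGal4 2 and 3 and below sgGal4 1. Only HBBP1 of the cluster had all 3 sgHBG libraries above all 11 other libraries.

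**Figure D3:**
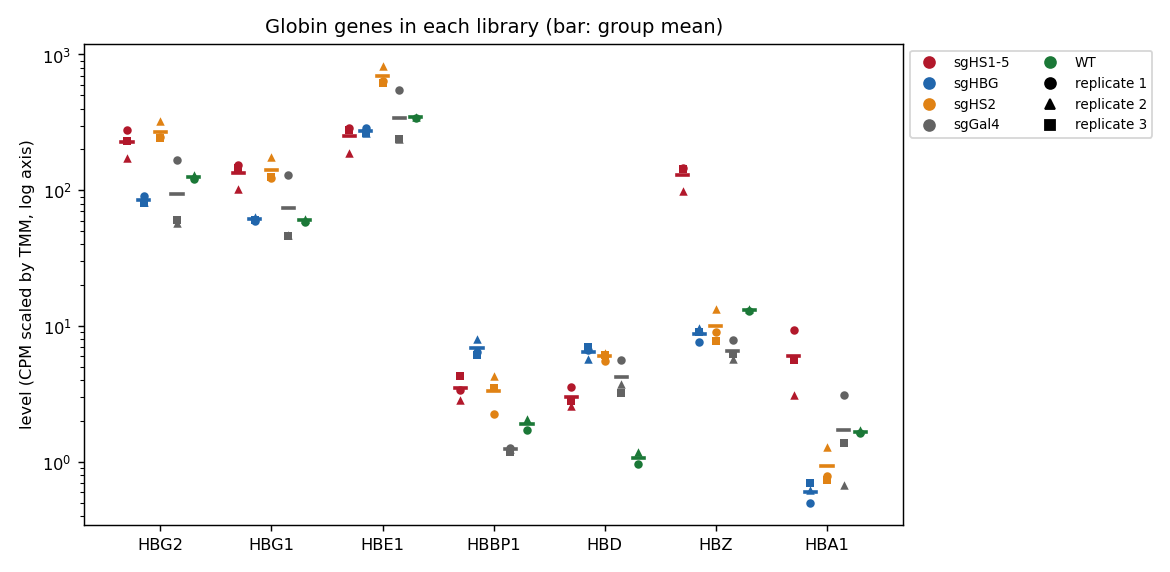
Level of the globin genes in each library (CPM scaled by TMM, log axis), by group from sgHS1-5 on the left to WT on the right, with symbols for the replicate number and bars for the group mean. HBG2 lies at 174 to 279 CPM in sgHS1-5 and at 80.5 to 90.2 CPM in sgHBG, and HBZ is at 99.2 to 147 CPM in sgHS1-5, above every other library.

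In the α-globin cluster, on another chromosome, 4 genes were higher in sgHS1-5. HBZ, the embryonic α-like gene, had 147, 99.2 and 143 CPM in sgHS1-5 and 7.7, 9.63 and 9.15 CPM in sgHBG (log2 difference 3.87 ± 0.22, edgeR adjusted p = 2.62e-07, and 4.06 in replicate 1 alone). All 3 sgHS1-5 libraries lay above all 11 other libraries, whose group means were 10.1 CPM in sgHS2, 6.63 CPM in sgGal4 and 13.2 CPM in WT. HBA1, an adult gene, had 9.39, 3.14 and 5.67 CPM in sgHS1-5 and 0.5, 0.624 and 0.697 CPM in sgHBG, and HBA2, its near-identical partner, had 3.88, 1.64 and 1.22 CPM in sgHS1-5 and 0.1, 0.446 and 0.261 CPM in sgHBG. In deposited RPKM, HBA1 had 64.1, 36.2 and 51.5 in sgHS1-5 and 8.13, 8.09 and 6.66 in sgHBG. Of the 11 tested genes, 4 were called higher (HBZ, HBA1, HBA2 and NPRL3, whose introns hold the main α-globin enhancers) and 0 lower, with all libraries and with replicate 1 alone. With the 2 groups only or without sgGal4 1 and sgHS2 2, 8 were higher and 0 lower. At an unadjusted p under 0.05, 6 were higher and 0 lower. Of the tested genes of this cluster 36.4% were called higher with all libraries, beside 12.4% of all genes. HBQ1, a further α-like gene, had 14.6, 9.14 and 13.6 CPM in sgHS1-5 and 6.7, 4.99 and 4.44 CPM in sgHBG but missed the threshold (adjusted p = 0.0539).

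Among genes that neighbour the β-globin cluster, 2 of 20 tested were higher and 7 were lower in sgHS1-5 (1 and 4 with replicate 1 alone). SMPD1, acid sphingomyelinase, had 11.7, 12.6 and 14.5 CPM in sgHS1-5 and 39.4, 39 and 39.7 CPM in sgHBG (log2 difference −1.61 ± 0.18, edgeR adjusted p = 5.27e-05). TRIM6, a ubiquitin ligase, had 22.2, 15.1 and 17 CPM in sgHS1-5 and 46.8, 49.9 and 39.6 CPM in sgHBG. For both genes the sgHS1-5 libraries were the lowest of all 14. TPP1, a lysosomal peptidase, was lower in sgHS1-5, at 266, 227 and 250 CPM, against 494, 495 and 484 CPM in sgHBG. RRM1, the large subunit of ribonucleotide reductase, was higher at 191, 181 and 163 CPM in sgHS1-5 and 130, 130 and 123 CPM in sgHBG. Of the neighbours tested, 10% were called higher and 35% lower, beside 12.4% and 12.8% of all genes. OR51B6, an olfactory receptor gene next to the locus control region, had 0.809, 1.64 and 1.22 CPM in sgHS1-5 and 0, 0.178 and 0.0871 CPM in sgHBG, and was not called in replicate 1 alone (adjusted p = 0.112 by edgeR).

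Of 38 globin regulators, all tested, 7 were higher and 2 lower in sgHS1-5 (18.4% and 5.26%, beside 12.4% and 12.8% of all genes). With replicate 1 alone 2 were higher and 2 lower, where 3.67% and 5.94% of all genes were called. Without sgGal4 1 and sgHS2 2 the counts were 14 and 9, and with the 2 groups only 12 and 6. Without sgHBG 1 the higher count was 4, and the lower count was 1 without sgHS1-5 3 or any sgHBG library. KLF1, the erythroid factor that activates adult globin, had 88.8, 60.9 and 88.1 CPM in sgHS1-5 and 34, 37.9 and 37.8 CPM in sgHBG (log2 difference 1.11 ± 0.23, edgeR adjusted p = 0.00433), and sgHBG was the lowest of all groups. ZFPM1, the GATA1 partner FOG1, had 46.6, 27.8 and 41.3 CPM in sgHS1-5 and 16.9, 20.4 and 23.7 CPM in sgHBG (0.92 ± 0.18, edgeR adjusted p = 0.00247). NFE2L1, an NF-E2-related factor, had 209, 206 and 211 CPM in sgHS1-5 and 353, 356 and 365 CPM in sgHBG (−0.78 ± 0.10, edgeR adjusted p = 0.000149). The libraries of these 3 genes did not overlap. GATA1, the main erythroid factor, was not called, at 216, 133 and 190 CPM in sgHS1-5 and 154, 161 and 159 CPM in sgHBG. BCL11A, a repressor of fetal globin that lymphoid cells also express, was called (adjusted p = 0.0305 by edgeR) from 0, 9.83 and 2.3 CPM in sgHS1-5, against 0.1, 0 and 0 CPM in sgHBG. It had no count in sgHS1-5 1 and moved with the blood cell markers, whose part was not tested.

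The erythroid membrane list had 6 higher and 4 lower of 28 tested (21.4% and 14.3%, beside 12.4% and 12.8% of all genes), and 4 and 2 with replicate 1 alone. ADD2, β-adducin of the red cell skeleton, had 97.9, 75.1 and 82.7 CPM in sgHS1-5 and 24.8, 27.2 and 29.9 CPM in sgHBG (log2 difference 1.64 ± 0.13, edgeR adjusted p = 2.89e-06). RHD, a blood group antigen, had 29.3, 19.7 and 28.2 CPM in sgHS1-5 and 7.4, 9 and 8.71 CPM in sgHBG (1.62 ± 0.17, edgeR adjusted p = 3.18e-05). GYPC, glycophorin C, was lower with 66.4, 71.1 and 80.7 CPM in sgHS1-5, against 131, 129 and 136 CPM in sgHBG. TRIM10, an erythroid RING finger gene, stood at 0.162, 0.273 and 0.405 CPM in sgHS1-5 and 5, 5.79 and 5.32 CPM in sgHBG, and here sgHBG lay above all 11 other libraries. Of the adult red cell markers, 1 was higher (HEMGN) and 1 lower (HBD) of 7 tested. In the heme and iron list, 4 were higher and 1 lower of 26 (15.4% and 3.85%, beside 12.4% and 12.8% of all genes). The counts were 7 and 4 with the 2 groups only, and 8 and 6 without sgGal4 1 and sgHS2 2. CPOX, an enzyme of heme synthesis, had 79.8, 82.4 and 85.5 CPM in sgHS1-5 and 40.4, 41.3 and 42 CPM in sgHBG, and SLC25A37, which imports iron into mitochondria, had 144, 103 and 127 CPM in sgHS1-5 and 55.5, 56.8 and 56.1 CPM in sgHBG.

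Of 19 megakaryocyte genes tested, 4 were lower in sgHS1-5 (21.1%, beside 12.8% of all genes), and 7 with the 2 groups only or without sgGal4 1 and sgHS2 2. ITGA2B, integrin αIIb of platelets, had 122, 80.2 and 117 CPM in sgHS1-5 and 229, 231 and 232 CPM in sgHBG (log2 difference −1.12 ± 0.16, edgeR adjusted p = 0.000346). The sgHBG libraries lay above all 11 others, whose group means were 65.6 CPM in sgHS2, 53.3 CPM in sgGal4 and 38.4 CPM in WT. THBS1, thrombospondin 1, had 22.5, 17.6 and 24.2 CPM in sgHS1-5 and 74.3, 70.5 and 75.2 CPM in sgHBG, and ITGB3, the β partner of ITGA2B, had 7.28, 5.19 and 5 CPM in sgHS1-5 and 11.7, 11.5 and 12 CPM in sgHBG. ITGB3 was not called in replicate 1 alone, where its log2 difference was −0.69, against −1.02 with all libraries. ITGA2B, THBS1, ITGB3 and SELP were the 4 genes called lower with all libraries, each with sgHBG highest of all libraries, beside 1 called higher. That was F13A1, a clotting factor that monocytes also make, at 0.486, 9.14 and 1.22 CPM in sgHS1-5 and 0.2, 0 and 0.0871 CPM in sgHBG. It was highest in sgHS1-5 2, as was the monocyte marker sum of 133, 760 and 250 CPM in sgHS1-5, whose part was not tested. The median log2 difference of the list was 0.18 with all libraries and −0.69 with replicate 1 alone, where 0 were higher and 7 lower. The F13A1 call was lost without sgHBG 2 or sgHBG 3, and without sgHS1-5 1 the list had 4 higher, and without sgGal4 1 and sgHS2 2 it had 3. In the mast cell and basophil list, 3 of 8 were lower and 0 higher by edgeR (at an unadjusted p under 0.05, 4 and 0; 1 lower without sgHS1-5 2, sgHS1-5 3 or any sgHBG library), among them FCER1A, the α chain of the IgE receptor, at 0.486, 0.273 and 0.135 CPM in sgHS1-5 and 2.1, 2.76 and 3.57 CPM in sgHBG.

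The transcripts of amino acid supply and of the ATF4 stress response were lower in sgHS1-5 than in sgHBG. ATF4 is a transcription factor whose translation rises when amino acids run short or proteins misfold, and its targets include enzymes and transporters of amino acids. Of 30 list members, all tested, 26 were lower (86.7%) and 0 higher, against 12.8% lower over all genes, and the median log2 difference was −1.16. At an unadjusted p under 0.05, 26 were lower and 0 higher, and DESeq2 and limma voom each gave 26 and 0. In every list described here with 0 edgeR calls in a direction, DESeq2 and limma voom with all libraries gave 0 in that direction too. This did not hold for every choice of libraries in the edgeR fit. With the 2 groups only, 2 heat shock genes and 1 cholesterol synthesis gene were higher and 1 replication gene lower. Without sgGal4 1 and sgHS2 2, 2 heat shock, 2 cholesterol synthesis, 1 BCR-ABL and STAT5, 1 cancer-testis and 1 platelet gene were higher, and 1 replication and 1 monocyte gene lower, while the ATF4 list stayed at 26 and 0 in both fits. The ribosomal protein list is given below. With replicate 1 alone, 26 were lower, of which 24 were shared, and 24 of the 26 called genes had all 3 sgHS1-5 libraries below all 11 others. ASNS, asparagine synthetase, had 72.5, 88.8 and 68.4 CPM in sgHS1-5 and 508, 489 and 482 CPM in sgHBG (log2 difference −2.69 ± 0.16, edgeR adjusted p = 4.02e-07). CTH, cystathionine γ-lyase, had 12.5, 14.6 and 11.2 CPM in sgHS1-5 and 53.9, 58.7 and 55.1 CPM in sgHBG (−2.13 ± 0.12, edgeR adjusted p = 2.36e-07). SLC6A9, a glycine transporter, had 3.56, 2.59 and 4.05 CPM in sgHS1-5 and 33.1, 33.7 and 32.5 CPM in sgHBG (−3.28 ± 0.19, edgeR adjusted p = 3.78e-07). The groups did not overlap in these 3 genes, and sgHS1-5 was the lowest of all groups.

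CHAC1, which breaks down glutathione, had 1.46, 3.41 and 1.35 CPM in sgHS1-5 and 25.7, 24 and 27 CPM in sgHBG (log2 difference −3.60 ± 0.25, edgeR adjusted p = 1.45e-06). TRIB3, a pseudokinase that restrains ATF4, had 48.2, 73.8 and 58.2 CPM in sgHS1-5 and 266, 267 and 254 CPM in sgHBG. ATF4 itself had 227, 377 and 236 CPM in sgHS1-5 and 625, 621 and 611 CPM in sgHBG (−1.14 ± 0.26, edgeR adjusted p = 0.00684). All sgHS1-5 libraries lay below all other libraries in these 3 genes. PHGDH, the first enzyme of serine synthesis, had 43.2, 113 and 59 CPM in sgHS1-5, against 349, 343 and 345 CPM in sgHBG. PSAT1, the next enzyme of that pathway, had 29.1, 114 and 45 CPM in sgHS1-5, against 237, 229 and 220 CPM in sgHBG. NUPR1, a stress-induced chromatin protein, had 17.2, 15.1 and 19.2 CPM in sgHS1-5 and 126, 127 and 125 CPM in sgHBG. In CHAC1, TRIB3, ATF4, PHGDH and PSAT1 sgHS1-5 2, the library with the most blood cell transcripts, lay closest to sgHBG. DDIT3 and PSPH were called with all libraries but not in replicate 1 alone. GPT2, SLC7A1, VLDLR and ALDH18A1 were not called with all libraries (log2 differences −0.55, −0.43, 0.40 and 0.01), and GPT2 and VLDLR were called lower in replicate 1 alone.

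Promoters of this group are shown for 3 genes because ATF4 acts through a composite C/EBP-ATF element whose core is TGATGNAA. The core was searched on both strands in the 250 bases upstream of the start from RefSeq (GRCh38.p14). It was present in 5 of the 24 list genes with a promoter in the table (20.8%), namely ASNS, CHAC1, CEBPG, SLC1A5 and ATF3, against 3.89% of the 27305 genes of the table. The list was drawn up from genes of the ATF4 response, so a higher share follows in part from that choice. The 27305 genes include untested ones, and base composition was not matched. A match is a description of the letters and not a site. Where a gene had several entries, the first entry with the core is given. The printed windows run 5′ to 3′ on the gene's strand, at chr7:97872409-97872658 (minus) for ASNS, chr15:40953221-40953470 (plus) for CHAC1 and chr19:33373863-33374112 (plus) for CEBPG, and capitals mark the core.
ASNS: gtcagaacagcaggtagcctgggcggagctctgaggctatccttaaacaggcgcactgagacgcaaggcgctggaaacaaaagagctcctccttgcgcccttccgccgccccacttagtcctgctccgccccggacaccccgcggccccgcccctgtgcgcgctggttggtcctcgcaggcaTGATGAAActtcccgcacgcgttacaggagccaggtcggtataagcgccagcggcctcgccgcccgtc
CHAC1: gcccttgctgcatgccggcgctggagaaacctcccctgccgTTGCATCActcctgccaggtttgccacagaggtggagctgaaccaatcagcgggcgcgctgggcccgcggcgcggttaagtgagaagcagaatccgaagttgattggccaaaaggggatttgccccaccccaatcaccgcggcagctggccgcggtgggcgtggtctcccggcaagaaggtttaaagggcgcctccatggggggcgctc
CEBPG: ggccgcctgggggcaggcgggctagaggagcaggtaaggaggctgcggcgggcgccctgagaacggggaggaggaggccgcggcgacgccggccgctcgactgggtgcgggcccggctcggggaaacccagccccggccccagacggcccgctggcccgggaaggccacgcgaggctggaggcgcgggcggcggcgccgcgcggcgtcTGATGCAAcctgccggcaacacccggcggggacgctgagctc

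Chaperones of the endoplasmic reticulum, which fold secreted proteins, moved in the same direction, with 9 of 18 lower and 0 higher (at an unadjusted p under 0.05, 11 and 0; 14 lower without sgGal4 1 and sgHS2 2) and a median log2 difference of −0.53. With replicate 1 alone 8 were lower. HSPA5, the chaperone BiP, had 551, 493 and 518 CPM in sgHS1-5 and 1060, 1030 and 1050 CPM in sgHBG (−1.01 ± 0.14, edgeR adjusted p = 0.000362). HERPUD1, a component of protein quality control, had 26.5, 46.1 and 25.8 CPM in sgHS1-5 and 95.8, 93.1 and 93.3 CPM in sgHBG. Of 14 heat shock genes, 6 were lower and 0 higher (at an unadjusted p under 0.05, 6 and 0). Their median log2 difference was −0.18 with all libraries and −0.1 with replicate 1 alone. The share called lower was 42.9% for this list and 50% for the endoplasmic reticulum chaperones, beside 12.8% of all genes. HSPA1A had 186, 146 and 181 CPM in sgHS1-5 and 359, 378 and 349 CPM in sgHBG, with reads that could be split with HSPA1B, its near-identical partner. The WT mean of HSPA1A was 38.4 CPM, below both groups.

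Glycolysis and hypoxia genes were higher in sgHS1-5. These encode the enzymes that convert glucose to lactate and targets of the hypoxia-inducible factors. Of 30 members, 23 were higher (76.7%) and 1 lower, against 12.4% and 12.8% over all genes, with a median log2 difference of 0.74, and DESeq2 and limma voom also gave 23 higher. With replicate 1 alone, 17 were higher and 1 lower, all shared. LDHA, which makes lactate, had 1600, 1370 and 1510 CPM in sgHS1-5 and 470, 473 and 470 CPM in sgHBG (log2 difference 1.67 ± 0.09, edgeR adjusted p = 2.03e-07). GPI, glucose-6-phosphate isomerase, had 476, 454 and 448 CPM in sgHS1-5 and 202, 194 and 185 CPM in sgHBG (1.25 ± 0.09, edgeR adjusted p = 1.76e-06). HK2, an inducible hexokinase, had 103, 146 and 117 CPM in sgHS1-5 and 30.5, 31.8 and 31.8 CPM in sgHBG (1.96 ± 0.19, edgeR adjusted p = 1.73e-05). All 3 sgHS1-5 libraries of these genes lay above all 11 others.

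P4HA1, a collagen prolyl hydroxylase, had 303, 243 and 279 CPM in sgHS1-5 and 138, 133 and 124 CPM in sgHBG, but its mean in sgHS2 was 326 CPM, so the sgHS1-5 level was not the highest. EGLN3, a prolyl hydroxylase that marks the hypoxia-inducible factors for decay, had 41.1, 21.7 and 41.6 CPM in sgHS1-5 and 6.8, 7.4 and 7.67 CPM in sgHBG. The groups did not overlap in either gene. CA9, a carbonic anhydrase, had 2.91, 1.09 and 2.57 CPM in sgHS1-5 and 0, 0.357 and 0 CPM in sgHBG. ADM, adrenomedullin, had 2.27, 7.37 and 3.11 CPM in sgHS1-5 and 0.3, 0.0891 and 0 CPM in sgHBG, with few reads behind the sgHBG values. DDIT4, an mTORC1 inhibitor induced by hypoxia and by ATF4, was the 1 lower member, at 193, 187 and 194 CPM in sgHS1-5 and 450, 437 and 440 CPM in sgHBG. VEGFA, SLC2A3, TPI1, HK1, PFKM and BNIP3L were not called. VEGFA, an angiogenic factor, had 247, 191 and 239 CPM in sgHS1-5 and 274, 270 and 266 CPM in sgHBG (adjusted p = 0.0834 by edgeR). The genes PFKL, PFKP, GAPDH, ENO1, PKM and KDM3A were called with all libraries but not in replicate 1 alone. GAPDH, a glycolytic enzyme often used as a loading control, had 2970, 3590 and 3260 CPM in sgHS1-5 and 2290, 2250 and 2200 CPM in sgHBG.

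**Figure D4:**
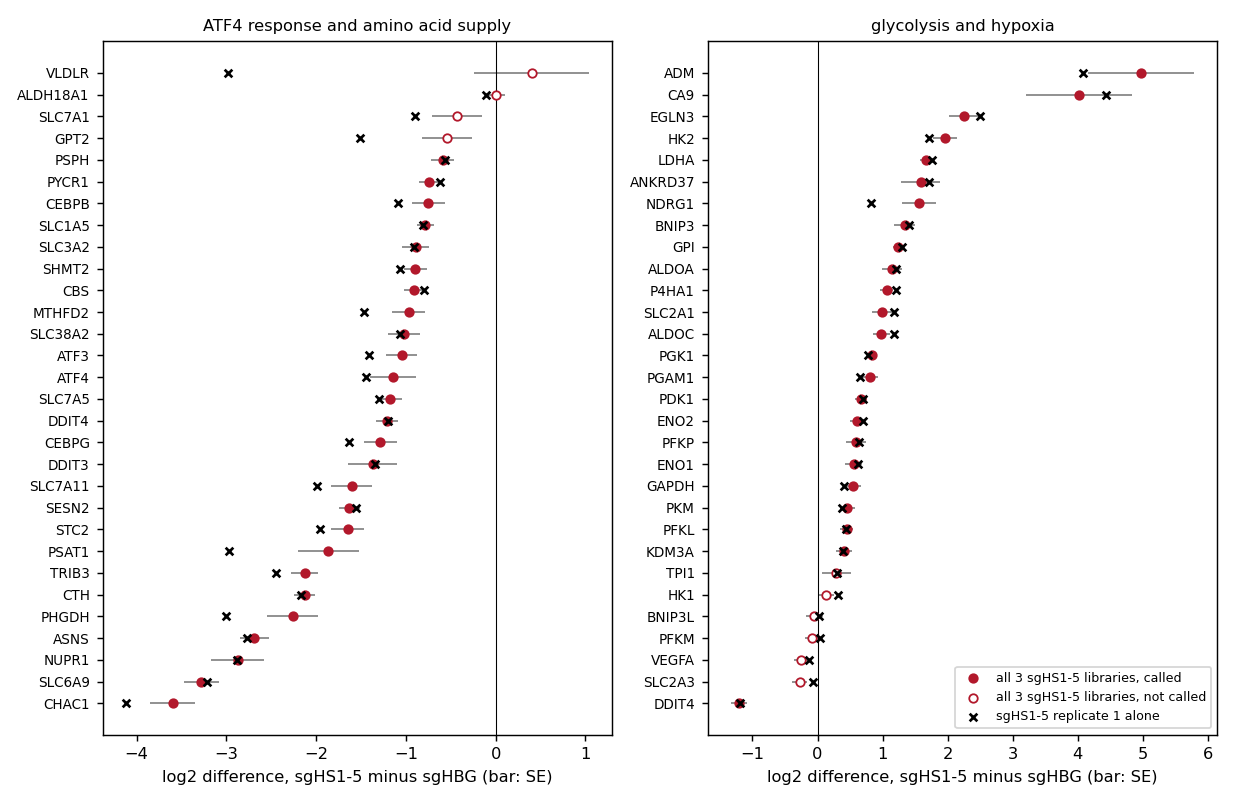
Log2 difference, sgHS1-5 minus sgHBG, for each tested member of the ATF4 and amino acid list (left) and the glycolysis and hypoxia list (right), with SE bars, filled where called, and crosses for sgHS1-5 replicate 1 alone. CHAC1 lies lowest on the left at −3.60 and 26 members are called lower, and 23 members on the right are called higher.

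The hypoxia-inducible factors bind sites whose core can be ACGTG. In the same RefSeq windows this core (CACGT on the other strand) was found in 17 of 26 genes of the list with a promoter (65.4%). It was found in 21.7% of the 27305 genes with a promoter, tested here or not, and base composition was not matched. The core also occurs within E-box motifs. The list was drawn up to hold targets of these factors, so a higher share follows in part from that choice. LDHA and HK2 are shown, LDHA holding it several times. Their windows are chr11:18394313-18394562 (plus) and chr2:74833877-74834126 (plus), with capitals for the core on either strand, and overlapping copies written as one run of capitals.
LDHA: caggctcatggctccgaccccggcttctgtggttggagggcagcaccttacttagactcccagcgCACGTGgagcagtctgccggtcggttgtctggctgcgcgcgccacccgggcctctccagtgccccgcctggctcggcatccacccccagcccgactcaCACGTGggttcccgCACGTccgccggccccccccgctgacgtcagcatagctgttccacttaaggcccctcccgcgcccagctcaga
HK2: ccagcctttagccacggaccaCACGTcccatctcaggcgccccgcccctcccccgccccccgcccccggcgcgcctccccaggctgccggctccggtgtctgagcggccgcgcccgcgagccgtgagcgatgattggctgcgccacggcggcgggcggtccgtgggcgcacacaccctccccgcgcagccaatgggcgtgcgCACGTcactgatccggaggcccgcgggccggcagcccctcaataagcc

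Targets of BCR-ABL and STAT5, the signalling pathway that drives K562, had 9 lower and 0 higher of 17 tested (at an unadjusted p under 0.05, 10 and 0; 5 lower with replicate 1 alone). SOCS3, a suppressor of cytokine signalling, had 8.9, 7.64 and 8.38 CPM in sgHS1-5 and 28.8, 28.8 and 25.4 CPM in sgHBG (log2 difference −1.74 ± 0.17, edgeR adjusted p = 2.2e-05). PIM1, a survival kinase, had 493, 345 and 451 CPM in sgHS1-5 and 839, 865 and 840 CPM in sgHBG. BCR and ABL1 were not called (0.10 and −0.17). Of this list 52.9% was called lower, beside 12.8% of all genes. Replication and mitosis genes were higher, with 15 of 30 higher and 0 lower (at an unadjusted p under 0.05, 19 and 0), and 6 in replicate 1 alone. MCM4, a helicase subunit, had 344, 380 and 336 CPM in sgHS1-5 and 207, 198 and 197 CPM in sgHBG (0.81 ± 0.11, edgeR adjusted p = 0.000289). WT averaged 295 CPM for MCM4, below every sgHS1-5 library. Of the replication and mitosis list 50% was called higher, beside 12.4% of all genes. The ribosomal protein list had 0 higher and 0 lower of 42 by edgeR, DESeq2 and limma voom, with 0 higher and 2 lower at an unadjusted p under 0.05, and 4 higher and 21 lower when sgGal4 1 and sgHS2 2 were left out, and 2 and 14 with the 2 groups only. Of 26 cholesterol synthesis genes, 7 were lower (26.9%, beside 12.8% of all genes) and 0 higher (at an unadjusted p under 0.05, 10 and 0). The counts were 17 lower and 2 higher without sgGal4 1 and sgHS2 2, and 13 and 1 with the 2 groups only. The median log2 difference of this list was −0.26 with all libraries and −0.33 with replicate 1 alone. With all libraries, INSIG1 had the lowest p, at 264, 267 and 264 CPM in sgHS1-5 and 406, 391 and 397 CPM in sgHBG.

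Interferon response genes had 2 higher and 10 lower of 34 tested, and 0 and 8 with replicate 1 alone (3 and 16 without sgGal4 1 and sgHS2 2). The higher count was 0 without sgHS1-5 2 or any sgHBG library. With all libraries, 5.88% of the interferon list was higher and 29.4% lower, beside 12.4% and 12.8% of all genes. STAT2, a signal transducer of interferon, had 90.5, 80.8 and 76.6 CPM in sgHS1-5 and 140, 145 and 144 CPM in sgHBG (log2 difference −0.79 ± 0.10, edgeR adjusted p = 0.00016). IFITM3, an antiviral membrane protein, had 44.3, 29.9 and 39.3 CPM in sgHS1-5 and 90.7, 87.7 and 90.3 CPM in sgHBG. Of 17 cancer-testis antigen genes tested, 8 were lower and 0 higher (10 lower and 1 higher at an unadjusted p under 0.05, 2 lower in replicate 1 alone), all 8 of them MAGE genes, among which reads of close copies could be split. The p53 list had 4 higher and 7 lower of 21 (2 higher without any 1 sgHBG library), and the biotin enzyme list 3 and 2 of 10 (6 and 3 with the 2 groups only or without sgGal4 1 and sgHS2 2), with 0 called in replicate 1 alone. For biotin enzymes an unadjusted p under 0.05 was reached by 5 higher and 3 lower with all libraries, and the higher count was 0 to 1 without sgHS1-5 3 or any sgHBG library. Of the cancer-testis list 47.1% was called lower, beside 12.8% of all genes. The shares higher and lower were 19% and 33.3% for p53 and 30% and 20% for biotin enzymes, beside 12.4% and 12.8%. For the p53 list the median log2 difference was −0.13 with all libraries and −0.26 with replicate 1 alone.

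The counts of the MHC, adhesion and immediate early lists depended on which libraries were in the fit. Of the MHC list 52.4% was called higher and 9.52% lower, and of the adhesion list 50% and 25%. For the immediate early list the shares were 17.2% and 24.1%, beside 12.4% and 12.8% of all genes. In the MHC list, 11 of 21 were higher and 2 lower with a median log2 difference of 1.15, but with replicate 1 alone 2 were higher and 1 lower with a median of 0.07. Without sgHS1-5 2, 5 were higher, without each sgHBG library 5 or 6, and limma voom gave 5. CD74, the invariant chain of class II molecules, had 10, 211 and 43.4 CPM in sgHS1-5 and 2.7, 2.67 and 2.35 CPM in sgHBG. Its order over the sgHS1-5 libraries follows the neutrophil sum of 49.5, 1730 and 345 CPM, and the part of other cells was not tested. HLA-E went the other way, at 175, 241 and 189 CPM in sgHS1-5 and 322, 331 and 333 CPM in sgHBG (−0.70 ± 0.12, edgeR adjusted p = 0.00117). The adhesion and matrix list had 14 higher and 7 lower of 28, and 4 and 7 with replicate 1 alone (9 higher without sgHS1-5 2, sgHBG 1 or sgHBG 3). SPARC, a matrix glycoprotein, was lower in every sgHS1-5 library, at 25.9, 20.3 and 28.6 CPM, against 59.3, 64.4 and 61.3 CPM in sgHBG (−1.31 ± 0.12, edgeR adjusted p = 9.95e-06). The immediate early list had 5 higher and 7 lower of 29, and 3 and 6 with replicate 1 alone. EGR2 had 2.59, 41.6 and 21.8 CPM in sgHS1-5 and 0.3, 0.357 and 0.61 CPM in sgHBG, and MYC 294, 489 and 329 CPM in sgHS1-5 and 203, 196 and 208 CPM in sgHBG. Of the marker lists, 10 of 13 neutrophil, 5 of 8 monocyte, 6 of 11 T and NK cell and 11 of 13 B cell genes were higher with all libraries, against 2, 0, 0 and 2 with replicate 1 alone. With all libraries, 2 neutrophil markers (15.4%) and 1 B cell marker (7.69%) were called lower, beside 12.8% of all genes. For monocyte and for T and NK cell markers 0 were lower. The higher count of neutrophil markers was 5 or 6 without sgHS1-5 2 or any sgHBG library, and that of monocyte markers 2. Among platelet markers 0 of 4 were higher and 1 lower, and among fibroblast and epithelial markers 2 of 8 were higher (4 without sgHS1-5 2, 5 without sgGal4 1 and sgHS2 2).

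**Figure D5:**
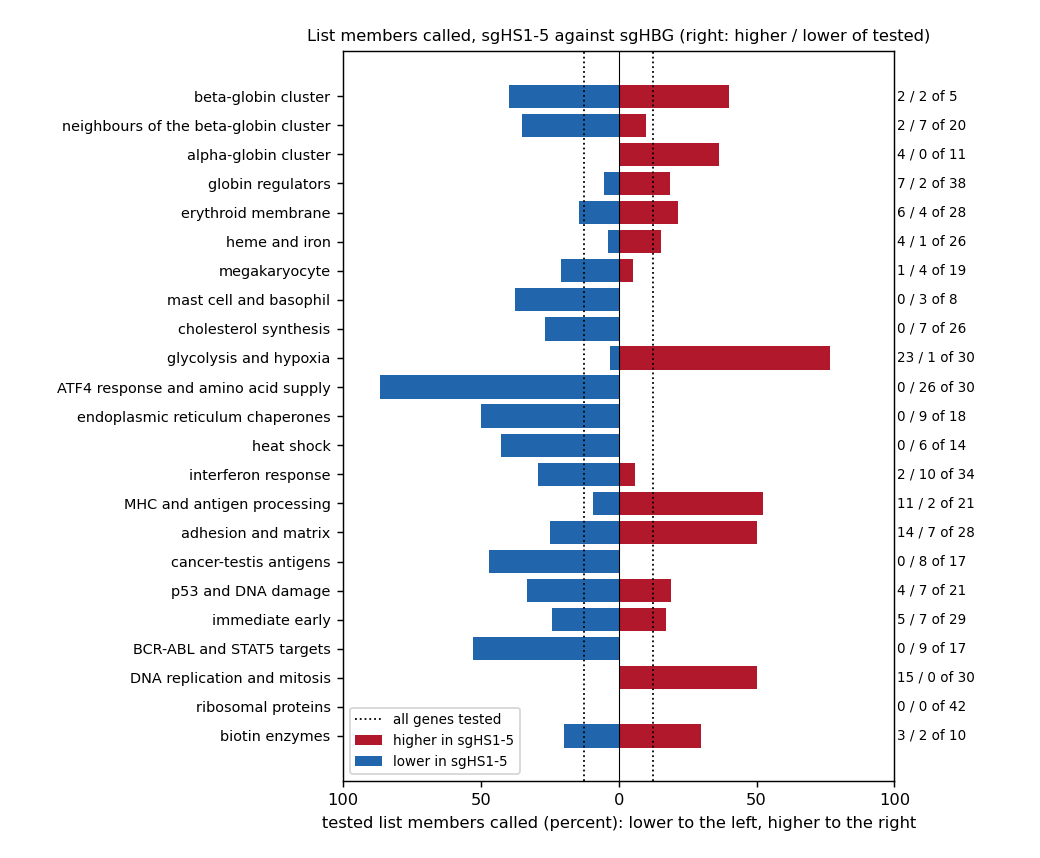
Share of tested members of each gene list called lower (left) and higher (right) in sgHS1-5 than in sgHBG, with the numbers at the right and dotted lines at the shares over all 14406 genes (12.8% lower, 12.4% higher). The ATF4 list reaches furthest to the left (86.7%) and the glycolysis and hypoxia list furthest to the right (76.7%).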

How the data were processed

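RNA-seq was performed on K562 cells with a TruSeq RNA v2 kit, per the labels' protocols. The deposited read counts are whole, unnormalized numbers for 24729 genes. The RPKM values were made by the authors (scaled to length and depth, per the submitters' processing notes) for 25268 genes, of which 539 are in that table only. TopHat, Cufflinks, DESeq and hg19 are named in the submitters' processing notes. Their versions, the annotation and the counter are not given in the sources used here.

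The counts went into edgeR 4.0.16 (R 4.3.3) after its filter on low counts (filterByExpr, at least 10 reads, total 15), which left 14406 genes. Libraries were scaled with TMM factors. A model with a mean for each of the 5 groups was fitted to the 14 libraries (common dispersion 0.0323, with 9 degrees of freedom left), and sgHS1-5 was set against sgHBG with the quasi-likelihood F test. A call is an adjusted p under 0.05 (Benjamini-Hochberg). For replicate 1 alone, sgHS1-5 2 and 3 were left out of the fit. Levels are CPM scaled by TMM. Floors use 3 counts over the group. Reads amplified by PCR and not tagged by molecule are not independent, so intervals and floors cover counting error only. Log2 differences are given ± SE. The procedure was tested on simulated data.

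The genes, the lists and the naming rule were chosen with earlier results of these data known. Named were the 12 highest and 12 lowest calls with at least 1 CPM, no overlap and a shared call in replicate 1 alone, every β-globin gene, up to 4 members per list with the lowest p, up to 4 markers of each other blood cell with the highest CPM in sgHS1-5 2, and the 6 highest calls that replicate 1 did not share. Further members are named after their values were seen, as are the 12 highest and lowest calls within 2-fold. Alternatives were RLE factors, other filters, DESeq2 1.42.0, limma voom (limma 3.58.1), the 2 groups only, a replicate block, a 2-fold minimum, thinned sgHBG counts, each sgHS1-5 and sgHBG library left out in turn, sgHS1-5 2 and 3 left out, sgGal4 1 and sgHS2 2 left out, and RPKM with 1 or 0.1 added.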

Additional observations from a re-analysis of the deposited data

Results flagged for a closer look

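The RPKM table held 539 genes with no row in the count table, and these entered no test. In 16 of them all 3 sgHS1-5 libraries lay above all 11 other libraries, controls included, and in 11 below them. Among the 14406 genes tested, sgHS1-5 lay outside the other libraries on either side in 16.0%. The ratio of the sgHS1-5 mean to the sgHBG mean was highest for LOC100127888 (2.18), HEATR2 (1.96) and C6orf100 (1.84). HEATR2 had 24.2, 24.7 and 25.5 RPKM in sgHS1-5 and 12.1, 13.3 and 12.6 RPKM in sgHBG. C6orf100 had 1.75, 1.51 and 1.36 RPKM in sgHS1-5 and 0.989, 0.726 and 0.8 RPKM in sgHBG. Of the 11 below, LOC100132354 had the lowest ratio (0.136), at 0.271, 0.237 and 0.23 RPKM in sgHS1-5 and 1.96, 2.06 and 1.43 RPKM in sgHBG. The symbols were used as deposited.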

How the results depend on the processing

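The count of called genes was 3628, of which 1790 were higher and 1838 lower in sgHS1-5. It was 5505 (2823 lower) with the 2 groups only, 6899 (3338 higher, 3561 lower) without sgGal4 1 and sgHS2 2, 1469 (908 higher, 561 lower) with a minimum of 2-fold, and 1383 (528 higher, 855 lower) without sgHS1-5 2 and 3. Leaving out each of the 6 sgHS1-5 and sgHBG libraries in turn (the other 8 were not left out singly) gave 2329 to 3429 calls, 1014 to 1759 of them higher and 1294 to 1670 lower, with 2396 calls without sgHBG 1 and 2329 without sgHBG 2. The share of calls that were higher was 49.3%, but 38.2% without sgHS1-5 2 and 3 and 61.8% with a minimum of 2-fold. Other settings were within 1.5 times, with DESeq2 at 3844 (3458 shared with edgeR), limma voom at 3316 and RLE at 3622. For replicate 1 alone, the count of 1383 was 6419 with the 2 groups only, 614 with the replicate block and 709 to 773 when a sgHBG library was left out. The replicate numbers did not pair libraries (correlations of deviations −0.026, 0.004 and 0.009 for equal numbers), and the replicate block gave 3211 calls, with 3 named calls lost. Of 165 named genes, 149 were called and 79 stayed past the threshold with the same sign in every setting. Without sgHS1-5 2 and 3, 36 calls were lost with the sign kept, and 3 further called genes turned in sign. Log2 differences turned in sign for HBE1 (0.08 without sgHS1-5 2 and 3, and −0.23 to 0.05 over the leave-one-out fits), CSF3R (−0.54), LYZ (−0.07), CYBB (−0.62) and NKG7 (−0.22), all without 2 and 3, PRF1 (−0.16 to 0.10 over the leave-one-out fits, and 0.07, 0.08 and 0.07 with RPKM) and SLC4A1 (0.00 to 1.29 over the leave-one-out fits). The causes were not tested. Depth limits genes with few reads, since the sgHS1-5 libraries were shallower.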
